A study of Mus musculus with 4 samples.

Results

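Retnla cells were the myeloid cells of mouse fibrosarcomas that carried high amounts of Retnla mRNA. They were chosen by a rule on raw counts of unique molecular identifiers (UMIs, 1 for each captured mRNA molecule). A cell needed at least 5 UMIs of Retnla, at least 1 UMI of the macrophage growth factor receptor gene Csf1r, at most 2 UMIs of the cell cycle genes Mki67 and Top2a together, and at most 1 UMI of the T cell genes Cd3d, Cd3e and Cd3g together. The rule took 874 of 27705 cells. They were set against 14126 cells with at least 1 UMI of Csf1r and 0 UMIs of Retnla, called Retnla 0 cells here. Retnla itself and the genes of the rule chose the cells, so their levels are a description and were not tested.

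The cells were live CD45+ leukocytes sorted on day 11 from untreated tumours and sequenced with 10x Genomics 3′ v3 chemistry. In the Raldh1/3 DKO group the implanted tumour cells lacked both retinaldehyde dehydrogenases, and the other group is labelled Cas9 control. Both groups had 2 libraries made from 2 pooled tumours apiece, so p-values for DKO against control measure the spread between pools. Those for comparisons of kinds of cell measure how the difference within a library spreads over the pools. The mouse strain, age and number of tumour cell clones are not given in the sources used here. The knockout lies in tumour cells, which the CD45 sort leaves out: in Retnla cells Aldh1a1 (Raldh1) had 0 UMIs in every library, and Aldh1a3 (Raldh3) had 1 and 1 UMI in DKO and 0 and 1 UMI in control, which checks nothing.

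Retnla encodes RELMα, also known as FIZZ1, a small secreted protein of the resistin-like family. In mouse macrophages it is a classic product of alternative activation, the state that interleukin 4 and interleukin 13 induce through the receptor subunit IL-4Rα and the transcription factor STAT6. Arginase 1 (Arg1), the chitinase-like protein Ym1 (Chil3) and the mannose receptor (Mrc1) are other products of that state. Lpl (lipoprotein lipase), Ear2 (an eosinophil-associated ribonuclease) and Clec4b1 (a C-type lectin receptor) were the further markers given with the rule.

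The libraries held 5429 to 9206 barcodes and 57458026 to 80032966 UMIs. Cells with fewer than 200 genes or more than 10% mitochondrial UMIs were left out (570 to 930 barcodes). Of 30368 barcode sequences, 110 occurred in more than 1 library, and 0 of the 874 Retnla cells shared theirs with a Retnla cell of another library. The UMI limit favours deep cells. Median UMIs per cell were 18739 and 17350 in DKO and 13709 and 13914 in control Retnla cells, against 10717 and 11104 in DKO and 9309 and 8985 in control Retnla 0 cells. The median mitochondrial share was 4.32% to 5.42% in Retnla cells and 3.43% to 4.03% in Retnla 0 cells. The part of depth and mitochondrial share in the results below was not tested beyond the thinned and stricter settings given with them. Retnla cells took 6.76% to 13.5% of their number from barcodes that Scrublet marked as possible doublets, against 4.95% to 9.37% in Retnla 0 cells, and these were kept.

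To see how common the cells were, their number was set against all cells of each library. The share was 1.61% (1.32 to 1.95) and 5.78% (5.14 to 6.48) in DKO, and 3.32% (2.95 to 3.73) and 2.65% (2.31 to 3.02) in control, with exact 95% intervals that cover counting error only. DKO 1 was the lowest and DKO 2 the highest of the 4 libraries, so the DKO values enclosed both control values. The means were 3.70% ± 2.95 in DKO and 2.99% ± 0.477 in control (SD, n = 2 each). The difference of 0.713 percentage points had an exact two-sided permutation p of 1, where the smallest p that 2 libraries against 2 allow is 0.333. Without DKO 2 the difference was -1.37 points, and without DKO 1 it was 2.80 points. Among Csf1r cells the share was 2.92% and 10.7% in DKO and 5.05% and 3.85% in control. The numbers behind these shares were 106 and 281 Retnla cells in DKO and 275 and 212 in control. Csf1r cells with 5 or more Retnla UMIs, before the cell cycle and Cd3 limits, were also counted. They made up 4.33% and 12.6% of Csf1r cells in DKO and 6.58% and 4.43% in control. Before those limits DKO 1 was still the lowest library, but close to control 2.

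**Figure D1:**
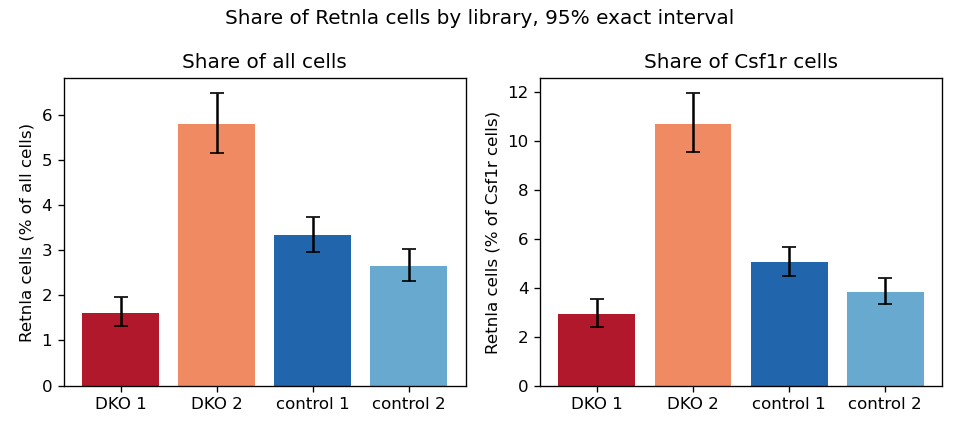
Share of Retnla cells in each library, as percent of all cells (left) and of cells with a Csf1r UMI (right), with exact 95% intervals as error bars. The DKO 1 bar (1.61% of all cells) is the lowest and the DKO 2 bar (5.78%) the highest, with both control libraries between them.

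Free RNA in droplets could give single Retnla UMIs to other cells, so T cells served as a background. At least 1 Retnla UMI was found in 1.80% and 8.38% of T cells (2 or more Cd3 UMIs, no Csf1r) in DKO and in 4.33% and 2.83% in control. In Csf1r cells that share was 13.5% and 33.0% in DKO and 19.3% and 12.2% in control. Median depth differed, at 4850 to 6407 UMIs in T cells and 9410 to 13025 in Csf1r cells. At the limit of 5 UMIs, 0 of 1779 and 0 of 1253 T cells in DKO and 0 of 1408 and 0 of 1059 in control passed, which allows shares of up to 0.207%, 0.294%, 0.262% and 0.348%.

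The amount of Retnla per cell spread over a wide range. The median Retnla cell held 12.5 and 32 Retnla UMIs in DKO and 21 and 17.5 in control, and the highest held 615 and 1099 in DKO and 408 and 330 in control. Their summed level, in UMIs scaled to a common library total (CPM), was 2162 and 5286 CPM in DKO and 3329 and 2610 CPM in control. Retnla cells thus carried 58.0% and 81.5% of all Retnla UMIs of their library in DKO, and 67.5% and 81.0% in control. Another 333 and 535 Csf1r cells in DKO and 690 and 428 in control held 1 to 4 Retnla UMIs and entered neither side. Csf1r cells with 5 or more Retnla UMIs that exceeded the cell cycle or Cd3 limit were left out too. They numbered 51 and 48 in DKO and 83 and 32 in control. Cells with 5 or more Retnla UMIs but no Csf1r UMI numbered 5 and 29 in DKO and 14 and 10 in control. Cells just inside the limit (5 or 6 UMIs) had 1317 and 1436 CPM of Slc7a2 in DKO and 1200 and 975 CPM in control, and cells just outside it (3 or 4 UMIs) had 1412 and 1211 CPM in DKO and 1056 and 871 CPM in control. On that gene, an arginine and lysine transporter, the limit did not mark a step.

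Retnla lies on chromosome 16 of GRCm38, from 48842551 to 48844461 on the plus strand. The stretch just before the gene, from RefSeq on GRCm38.p6, is shown because it holds a match to TTCNNNNGAA, the palindromic spacing that STAT6 prefers, and so does that of Pdcd1lg2 (PD-L2, an inhibitory ligand for T cells that is also induced by interleukin 4). The match is in capitals. It lies 145 to 136 bases before the RefSeq start in Retnla and 82 to 73 bases before it in Pdcd1lg2. The RefSeq start of Retnla lies inside the gene span given above, and the printed stretch stops before that span, so the match is 87 to 78 bases from its end.
Retnla, chr16:48842359-48842550, plus strand: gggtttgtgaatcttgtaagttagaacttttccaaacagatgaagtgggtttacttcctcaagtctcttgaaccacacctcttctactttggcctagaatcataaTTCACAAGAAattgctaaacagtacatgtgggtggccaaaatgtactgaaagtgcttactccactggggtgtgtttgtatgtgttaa
Pdcd1lg2, chr19:29410669-29410918, plus strand: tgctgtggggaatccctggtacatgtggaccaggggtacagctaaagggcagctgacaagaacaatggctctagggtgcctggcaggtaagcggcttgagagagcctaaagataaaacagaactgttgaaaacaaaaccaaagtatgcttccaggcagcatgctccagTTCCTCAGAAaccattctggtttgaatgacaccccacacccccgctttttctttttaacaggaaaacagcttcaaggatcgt
The pattern TTCNNNNGAA reads the same way on both strands, though the middle letters of a match need not. Matches occur in 6.76% of 27025 windows of 250 bases before gene starts. They occur in 4 of the 25 windows found for Retnla and the alternative activation list (Retnla, Pdcd1lg2, Ccl17 and Clec7a). None of the 10 windows found for the 12 genes named below for the largest rises held a match. A match is a description of the letters and not a binding site.

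To ask what else marked Retnla cells, UMIs were summed per library over Retnla cells and over Retnla 0 cells and fitted with edgeR, with the library as a block. The alternative activation list stood higher in Retnla cells: of its 35 genes 33 passed the filter on low counts, 19 of them rose and 3 fell, with a median log2 change of 0.56. By sign, 26 had positive and 7 negative log2 values. This list and the others below were written with earlier results of these data known. Their counts are therefore a description and not independent support for a cell state. Ocstamp and Cdh1, genes of the list taken up below, were neither among the 19 nor among the 3. In CPM, Ocstamp was lower in Retnla cells than in Retnla 0 cells of each library. Over all 11695 genes tested the background was 17.5% higher and 16.0% lower (33.5% in all), with a median log2 change of 0.01. Chil3, the gene of Ym1, had 576 and 2824 CPM in DKO and 1913 and 2331 CPM in control Retnla cells, against 215 and 1196 CPM in DKO and 523 and 827 CPM in control Retnla 0 cells. It rose by 1.60 ± 0.08 on the log2 scale (± SE throughout; edgeR adjusted p = 1.1e-09). DKO 1 was lowest in both kinds of cell, and in each library the Retnla cells were higher.

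Ccl8, a chemokine of monocytes and type 2 T cells, had 7676 and 6816 CPM in DKO and 6793 and 10068 CPM in control Retnla cells, against 3744 and 2136 CPM in DKO and 2179 and 3628 CPM in control Retnla 0 cells. All Retnla values lay above all Retnla 0 values, and the log2 change was 1.55 ± 0.11 (edgeR adjusted p = 1.05e-05). Mrc1, the mannose receptor, had 2288 and 3802 CPM in DKO and 2413 and 2415 CPM in control Retnla cells, against 1345 and 1591 CPM in DKO and 1324 and 1311 CPM in control Retnla 0 cells (1.03 ± 0.08). DKO 2 stood highest in Retnla cells, and the groups of cells did not overlap. Mrc1 was detected in 99.3% to 100% of Retnla cells of a library and in 79.0% to 84.0% of Retnla 0 cells. These shares were taken at full depth, and Retnla cells were the deeper ones.

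Arg1, the enzyme that splits arginine into ornithine and urea, moved less. It had 5437 and 5256 CPM in DKO and 4979 and 6394 CPM in control Retnla cells, against 4462 and 3749 CPM in DKO and 3776 and 4740 CPM in control Retnla 0 cells, a log2 change of 0.49 ± 0.06 (edgeR adjusted p = 4.89e-07). It was thus abundant on both sides and higher in the Retnla cells of each library. Fn1 (fibronectin) rose by 1.11 ± 0.07, the galactose-binding lectins Mgl2 by 0.92 ± 0.05 and Clec10a by 0.94 ± 0.08, and the eosinophil chemokine Ccl24 by 0.56 ± 0.08. Among the receptor and regulators of the state, Il4ra rose by 0.42 ± 0.06, the transcription factors Irf4 by 0.56 ± 0.12, Egr2 by 0.49 ± 0.08 and Klf4 by 0.60 ± 0.06, and Pdcd1lg2 by 0.55 ± 0.06. The cytokine signalling inhibitors Socs1 and Cish fell by 0.54 ± 0.08 and by 0.29 ± 0.08, and the transglutaminase Tgm2 fell by 0.27 ± 0.06. Cish did not pass without DKO 2 (-0.19, edgeR adjusted p = 0.0691). With Retnla 0 cells limited by C1q, as described below, its change was -0.04 (edgeR adjusted p = 0.792). With cells thinned to 3000 UMIs the list gave 17 higher and 4 lower of 31 tested, where 10.4% of all 9625 genes tested were higher and 11.1% lower.

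**Figure D2:**
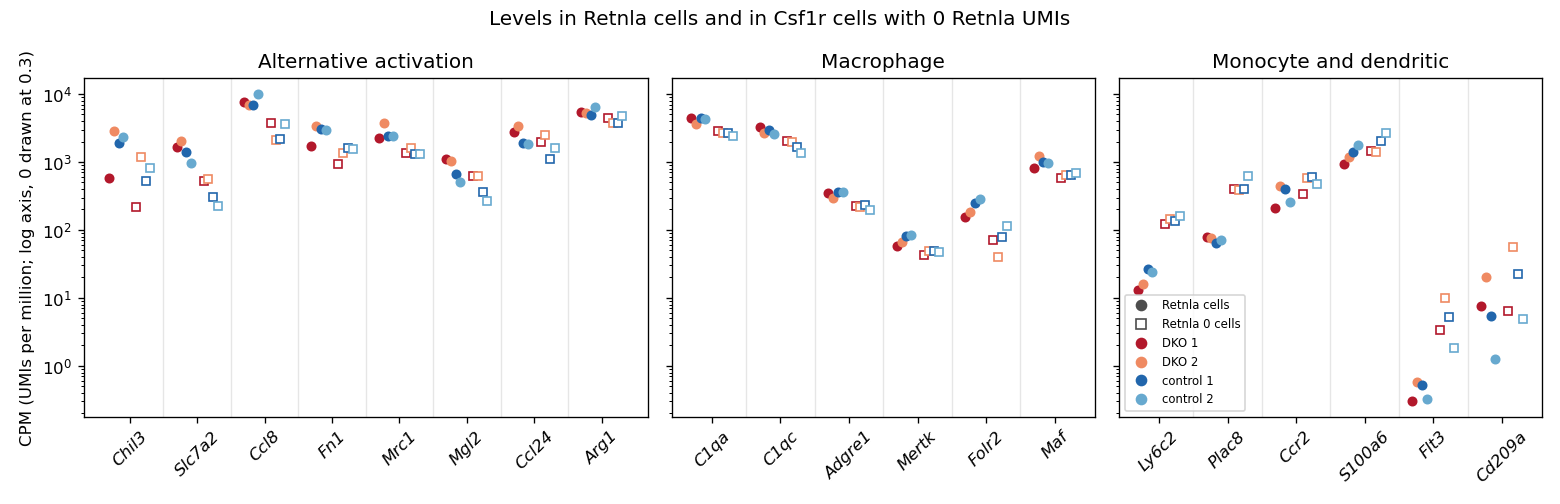
Levels in CPM (log axis) of alternative activation, macrophage, monocyte and dendritic genes in Retnla cells (filled circles) and Retnla 0 cells (open squares), 1 point per library. Chil3, Slc7a2, Ccl8 and the C1q genes lie higher in Retnla cells of each library, and Ly6c2, Plac8 and Flt3 lie lower.

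The other relatives of Retnla were scarce. Retn (resistin) and Retnlb had 0 UMIs in the Retnla cells of every library, and Retnlg, a neutrophil member, had 1.01 and 2.11 CPM in DKO and 0.783 and 2.89 CPM in control Retnla cells, against 0.975 and 6.57 CPM in DKO and 2.65 and 11.0 CPM in control Retnla 0 cells (log2 change -1.58 ± 0.28, edgeR adjusted p = 0.000117). Retnlg libraries of both kinds overlapped, and the change turned to 0.57 (adjusted p = 0.322) when Retnla 0 cells were limited by C1q, as described below. Chil4 had 3 and 30 UMIs in DKO and 6 and 0 UMIs in control Retnla cells. Of the other resistin-like genes, Retnlg was the one with UMIs in Retnla cells.

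The genes with the largest rises were of mixed function. Rnase2a, a ribonuclease A family gene, had 32.9 and 176 CPM in DKO and 231 and 89.2 CPM in control Retnla cells, against 2.40 and 10.5 CPM in DKO and 8.91 and 3.79 CPM in control Retnla 0 cells. The 2 kinds of cell did not overlap, and the log2 change was 4.45 ± 0.13 (edgeR adjusted p = 2.49e-10). The mouse Ear and Rnase2 genes are near-identical copies, so reads could be split between them. Of the ribonuclease list 4 of 10 genes were tested: Rnase4 (1.60 ± 0.11) and angiogenin, Ang (1.34 ± 0.08), rose as well, and Rnase6 fell by 0.43 ± 0.10. Rnase6 did not pass with the C1q limit (-0.06, edgeR adjusted p = 0.765) or with thinned cells (-0.36, 0.142). Nor did it pass with at most 5% mitochondrial UMIs (-0.33, edgeR adjusted p = 0.101). Slc7a2 had 1654 and 2050 CPM in DKO and 1380 and 977 CPM in control Retnla cells, against 528 and 564 CPM in DKO and 300.4 and 224 CPM in control Retnla 0 cells. Its lowest Retnla value lay above its highest Retnla 0 value, and the log2 change was 2.05 ± 0.08 (edgeR adjusted p = 9.41e-12).

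Fcna, a ficolin that binds sugars and starts complement, rose by 2.21 ± 0.20, Gas6, a ligand of the TAM receptors that clear dead cells, by 1.96 ± 0.13, and the growth factor Pdgfc by 1.82 ± 0.11. Cbr2 (a carbonyl reductase) rose by 2.21 ± 0.19, Atp6v0d2 (a subunit of the vacuolar proton pump) by 2.17 ± 0.09, Rcn3 (a calcium-binding protein of the endoplasmic reticulum) by 1.90 ± 0.14 and Adcy3 (an adenylate cyclase) by 1.87 ± 0.13. Cd163, Igf1 and Lyz1 missed the threshold when single libraries were left out, while their changes stayed about as large. Cd163, the haemoglobin scavenger receptor, had 63.4 and 564 CPM in DKO and 121 and 127 CPM in control Retnla cells, against 21.8 and 64.0 CPM in DKO and 21.5 and 38.3 CPM in control Retnla 0 cells.
DKO 2 stood far above the other libraries for Cd163, and the change of 2.42 ± 0.39 (edgeR adjusted p = 0.0234) did not pass without DKO 1 (2.59, adjusted p = 0.0639), control 1 (2.34, 0.123) or control 2 (2.63, 0.0691). Igf1, the growth factor, changed by 2.23 ± 0.35 (edgeR adjusted p = 0.0219) and did not pass without DKO 1 (2.28, adjusted p = 0.0942), control 1 (2.14, 0.115) or control 2 (1.99, 0.0527). Lyz1, the lysozyme of Paneth cells and a near copy of Lyz2, changed by 4.37 ± 0.67 (edgeR adjusted p = 0.0209) and did not pass without DKO 2 (4.65, adjusted p = 0.0704) or control 1 (4.33, 0.122).

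To place the cells among myeloid types, macrophage, monocyte and dendritic lists were counted. Of 17 macrophage genes tested 12 rose and 2 fell (median log2 change 0.72). The complement genes C1qa and C1qc rose by 0.76 ± 0.06 and 0.80 ± 0.06, the macrophage surface protein gene Adgre1 (F4/80) by 0.73 ± 0.06, the clearance receptor Mertk by 0.72 ± 0.08 and the transcription factor Maf by 0.73 ± 0.07. C1qa had 4422 and 3635 CPM in DKO and 4421 and 4299 CPM in control Retnla cells, against 2881 and 2646 CPM in DKO and 2631 and 2379 CPM in control Retnla 0 cells. Folr2, a folate receptor of tissue macrophages, rose by 1.66 ± 0.24 (edgeR adjusted p = 0.0153), and by a like amount without control 1 (1.63) or control 2 (1.76), where it missed the threshold (adjusted p = 0.082 and 0.056). Fcgr1, the high-affinity Fc receptor, fell by 0.60 ± 0.07.

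Monocyte genes went the other way, with 17 of 19 lower and 0 higher (median log2 change -1.53). Ly6c2, the antigen of inflammatory monocytes, had 13.2 and 15.9 CPM in DKO and 26.6 and 24.4 CPM in control Retnla cells, against 121 and 143 CPM in DKO and 134 and 160.0 CPM in control Retnla 0 cells. The 2 kinds of cell were far apart, with a log2 change of -2.71 ± 0.11 (edgeR adjusted p = 1.74e-10). Plac8 fell by 2.53 ± 0.14, and Ccr2, the receptor that brings monocytes into tissue, by 0.53 ± 0.08. With at most 5% mitochondrial UMIs the Ccr2 change of -0.42 did not pass (edgeR adjusted p = 0.173). Of 19 dendritic cell genes 12 were lower and 2 higher. Flt3, the growth factor receptor of dendritic cells, had 0 and 0.575 CPM in DKO and 0.522 and 0.321 CPM in control Retnla cells, against 3.42 and 10.1 CPM in DKO and 5.29 and 1.85 CPM in control Retnla 0 cells.

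The Retnla 0 cells were a mixture of monocytes, macrophages and dendritic cells. An alternative that limited them to cells with at least 10 UMIs of C1qa, C1qb and C1qc together, chosen after seeing the data, called 2054 genes in place of 3917, with 9.62% of 10899 genes tested higher and 9.22% lower. Of the alternative activation list 18 of 33 genes were then higher and 4 lower, of the macrophage list 10 of 16 higher and 1 lower, of the monocyte list 0 of 18 higher and 12 lower, and of the dendritic list 2 of 14 higher and 2 lower. The macrophage list includes the C1q genes that chose these Retnla 0 cells, so their changes are a description only. C1qa (0.30) and C1qc (0.35) are among the 10, and C1qb (0.13) is not. Cd209a, a lectin of dendritic cells, changed sign there: it was 1.78 higher in Retnla cells (edgeR adjusted p = 0.012), against a log2 change of -1.35 in the full comparison.

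Genes of the response to interferon gamma stood lower, with 15 of 20 lower and 1 higher (median log2 change -0.43), and with 15 lower and 0 higher against the cells limited by C1q. Cxcl9, a chemokine for T cells, had 815 and 676 CPM in DKO and 606 and 668 CPM in control Retnla cells, against 1100 and 857 CPM in DKO and 895 and 962 CPM in control Retnla 0 cells. Its highest Retnla value lay below its lowest Retnla 0 value (log2 change -0.38 ± 0.06). Gbp2 and Psmb8 each fell by 0.51, with SE 0.06 and 0.07. With at most 5% mitochondrial UMIs the Gbp2 change of -0.50 did not pass (edgeR adjusted p = 0.076). Of 12 genes of MHC class II presentation 5 fell and 1 rose: H2-Ab1 fell by 0.21 ± 0.06 and H2-Eb1 by 0.22 ± 0.06, and the protease Ctss rose by 0.56 ± 0.06. H2-Eb1 did not pass without control 2 (-0.19, edgeR adjusted p = 0.0578) or with thinned cells (-0.15, 0.0953).

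Of 21 inflammatory cytokine genes 11 were lower and 0 higher against Retnla 0 cells (median log2 change -0.34). Il1b, the gene of interleukin 1β, had 391 and 341 CPM in DKO and 244 and 229 CPM in control Retnla cells, against 1068 and 778 CPM in DKO and 772 and 861 CPM in control Retnla 0 cells. Both kinds of cell were clearly separate (log2 change -1.46 ± 0.13, edgeR adjusted p = 0.000266). The monocyte chemokines Ccl2, Ccl7 and Ccl12 had log2 changes of 0.48, 0.76 and 0.70 that did not pass against Retnla 0 cells. Hypoxia and glycolysis genes gave 3 higher (13.6%) and 6 lower (27.3%) of 22, where all genes tested gave 17.5% and 16.0%. Gapdh and Pkm had log2 changes of -0.26 ± 0.06 and -0.30 ± 0.06. The list gave 0 higher and 11 lower of 22 against the cells limited by C1q, and 0 higher and 12 lower of 21 in thinned cells.

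Of 23 genes of lipid uptake, storage and efflux 12 were higher and 2 lower (median log2 change 0.30). The tetraspanin Cd63 rose by 0.99 ± 0.06, the lipid receptor Trem2 by 0.62 ± 0.06, the fatty acid binding protein Fabp5 by 0.55 ± 0.08 and the sterol carrier Npc2 by 0.32 ± 0.05. Npc2 did not pass against the cells limited by C1q (0.13, edgeR adjusted p = 0.0968). Apoe, the apolipoprotein, had 4610 and 4406 CPM in DKO and 7897 and 8553 CPM in control Retnla cells, against 3669 and 4728 CPM in DKO and 5358 and 4827 CPM in control Retnla 0 cells. DKO 2 went against the other libraries, and the change of 0.49 ± 0.15 did not pass (edgeR adjusted p = 0.0765). Matrix and protease genes gave 3 higher (13.6%) and 4 lower (18.2%) of 22, near the 17.5% and 16.0% of all genes tested. Among them Timp2, an inhibitor of metalloproteinases, rose by 1.80 ± 0.07 and the cathepsin Ctsb by 0.88 ± 0.06, while Tgfbi fell by 0.38 ± 0.05.

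The knockout removes retinaldehyde dehydrogenases from tumour cells, and genes of retinoid handling and response were counted. Between DKO and control Retnla cells 0 of 10 tested passed, with 4 positive and 6 negative log2 values (median -0.097). The values below compare Retnla cells with Retnla 0 cells and do not measure the knockout. Of 11 tested there 4 were higher (36.4%) and 2 lower (18.2%), where all genes gave 17.5% and 16.0%. Dhrs3, which reduces retinaldehyde to retinol, had 219 and 254 CPM in DKO and 275 and 301 CPM in control Retnla cells, against 127 and 115 CPM in DKO and 146 and 144 CPM in control Retnla 0 cells. The values did not overlap (log2 change 1.07 ± 0.06, edgeR adjusted p = 1.59e-11). Dhrs9, a retinol dehydrogenase, rose by 1.44 ± 0.08 and the retinoid X receptor Rxra by 0.96 ± 0.08, and the retinoic acid receptor Rara fell by 0.38 ± 0.08. Rara did not pass against the cells limited by C1q (-0.15, edgeR adjusted p = 0.212). Aldh1a2 (Raldh2), named after its values were seen, had 2.53 and 4.80 CPM in DKO and 3.92 and 4.17 CPM in control Retnla cells, against 0.261 and 1.73 CPM in DKO and 0.669 and 0.449 CPM in control Retnla 0 cells. These levels rest on 5 and 25 UMIs in DKO and on 15 and 13 UMIs in control Retnla cells.

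Of 13 complement genes 7 rose and 0 fell, of 15 C-type lectin receptor genes 5 rose and 4 fell, and of 14 type 2 cytokine and receptor genes 3 rose and 6 fell. Dissociation stress genes, which rise when tissue is digested, gave 6 higher and 3 lower of 23 (median log2 change 0.02).

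Transcripts of other cell types were checked as whole lists. Retnla cells held 96.8 to 222 CPM of T and NK cell transcripts per library and Retnla 0 cells 599 to 930 CPM. For neutrophil transcripts the ranges were 60.6 to 154 CPM and 190 to 440 CPM, for B cell transcripts 14.8 to 23.8 CPM and 29.9 to 82.3 CPM, and for tumour and stromal transcripts 128 to 179 CPM and 162 to 306 CPM. Eosinophil transcripts were higher in Retnla cells, at 8.11 to 16.5 CPM against 3.87 to 6.75 CPM. Of the 10 genes of that list 3 were tested and 2 rose, namely Alox15 and Cebpe. Alox15 is also counted among the higher genes of the alternative activation list. Of the eosinophil list 5 genes were at 0 in all Retnla cells, Epx and Il5ra among them. Prg2 had 0 and 1 UMI in DKO and 1 and 0 UMIs in control. The genes with the largest falls were cell cycle genes (Nusap1, Prc1, Ccna2), T and NK cell genes (Gzmb, Gzmc, Icos, Nkg7) and haptoglobin, Hp, at log2 changes of -4.28 to -3.32. The rule limits cell cycle and Cd3 UMIs in Retnla cells. With Retnla 0 cells held to the same limits, the 3 cell cycle genes changed by -0.15 (Nusap1), -0.16 (Prc1) and -0.25 (Ccna2) and none passed (edgeR adjusted p = 0.84, 0.784 and 0.635). The other 5 stayed lower there, at -2.19 for Gzmb, -1.86 for Nkg7, -2.83 for Gzmc, -0.98 for Icos and -3.65 for Hp. With the C1q limit added, Gzmb (-0.73), Hp (-0.85) and Nkg7 (edgeR adjusted p = 0.000867) still passed, and Gzmc (-0.54, edgeR adjusted p = 0.174) and Icos (-0.16, 0.827) did not.

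The markers given with the rule stood higher in Retnla cells, though most Retnla cells lacked a UMI of each. Lpl, which frees fatty acids from lipoproteins, had 65.9 and 133 CPM in DKO and 41.3 and 25.3 CPM in control Retnla cells, against 9.98 and 24.5 CPM in DKO and 14.0 and 14.8 CPM in control Retnla 0 cells. A UMI of Lpl was found in 21.7% and 20.6% of Retnla cells in DKO and in 10.9% and 7.08% in control, and after thinning in 11.5% and 12.7% in DKO and in 6.06% and 4.37% in control. Ear2 had 191 and 239 CPM in DKO and 168 and 61.3 CPM in control Retnla cells, against 37.0 and 89.7 CPM in DKO and 30.5 and 11.4 CPM in control Retnla 0 cells. The control 2 value was lowest for all 3 markers in Retnla cells. Clec4b1 was found in 13.2% and 16.0% of Retnla cells in DKO and in 8.0% and 6.60% in control, and in 2.63% to 4.38% of Retnla 0 cells. The Clec4b1 shares are from cells at full depth, where Retnla cells were the deeper ones.

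The cells with most Retnla differed from those near the limit. Cells with 100 or more Retnla UMIs (9 and 69 in DKO, 34 and 25 in control) had 284 and 237 CPM of Lpl in DKO and 109 and 130 CPM in control, and cells with 5 to 9 UMIs had 14.0 and 48.4 CPM in DKO and 4.65 and 5.12 CPM in control. Clec4b1 followed the same order, with 170 and 40.9 CPM in DKO and 44.3 and 51.4 CPM in control at 100 or more UMIs, and 2.54 and 10.6 CPM in DKO and 3.49 and 7.67 CPM in control at 5 to 9. Lyz1 stood at 73.0 and 81.9 CPM in DKO and 302 and 677 CPM in control in the top step, and at 1.16 to 2.54 CPM in the bottom step. In each library these 3 transcripts were highest in the top step. Chil3 had 2302 and 3175 CPM in DKO and 3377 and 2706 CPM in control in the top step, against 224 and 1647 CPM in DKO and 859 and 1490 CPM in control in the bottom step. Arg1 did not follow Retnla, at 3689 and 4901 CPM in DKO and 4827 and 4538 CPM in control in the top step, against 5775 and 5487 CPM in DKO and 4634 and 7058 CPM in control in the bottom step. These steps were cut on Retnla itself and were not tested.

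**Figure D3:**
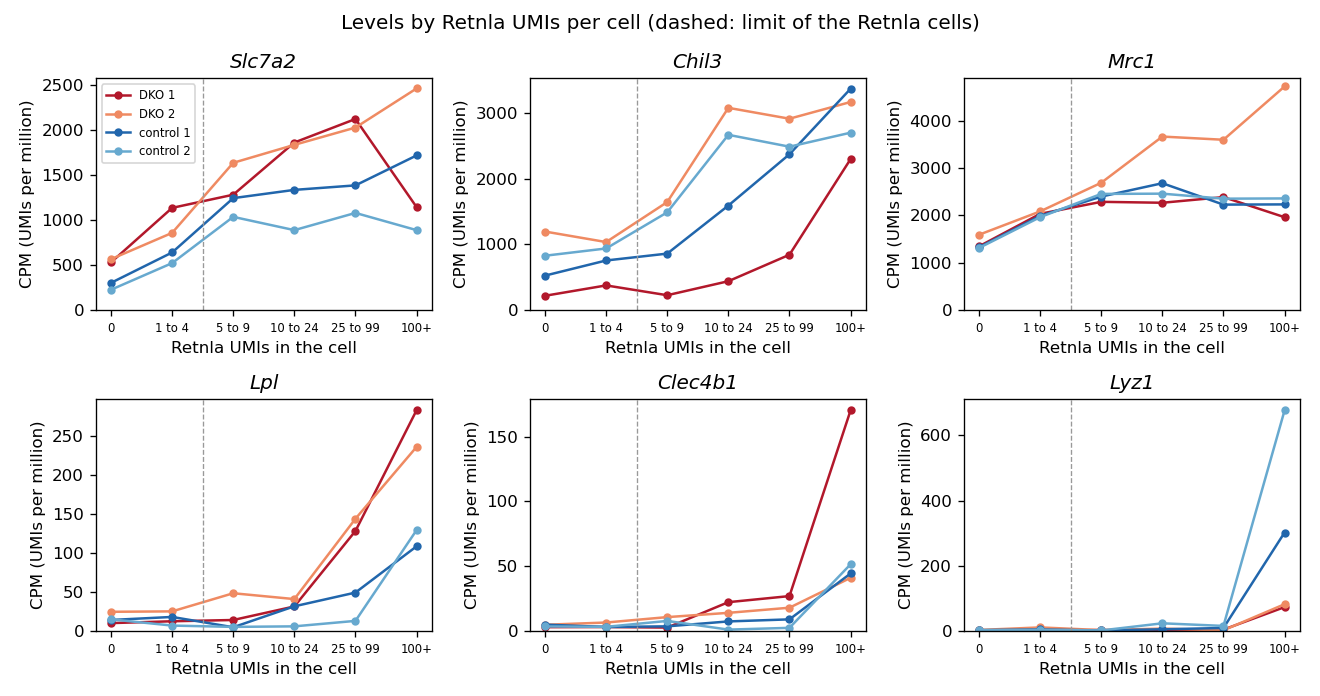
Levels of 6 genes in CPM by the number of Retnla UMIs in the cell, 1 line per library, with the dashed line at the limit of 5 UMIs. Slc7a2 is already raised at 1 to 4 Retnla UMIs, while Lpl, Clec4b1 and Lyz1 climb in the steps with most Retnla.

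Retnla cells fell into sets that carried different genes. The sets were defined after the values were seen and were not tested. They were cut on raw UMIs without thinning. Retnla cells were deeper in DKO (median 18739 and 17350 UMIs) than in control (13709 and 13914). The part of depth in the set shares was not tested. Cells with at least 2 UMIs of Lpl or 1 of Clec4b1 made up 20.8% and 22.4% of Retnla cells in DKO and 12.7% and 8.96% in control. Cells with a UMI of Cd163 and without the first mark made up 11.3% and 41.3% in DKO and 20% and 24.1% in control, and cells with neither 67.9% and 36.3% in DKO and 67.3% and 67% in control. DKO 2 had the largest Cd163 set and the smallest set with neither.

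The Lpl or Clec4b1 set carried Ear2 at 776 and 647 CPM in DKO and 656 and 361 CPM in control, against 0 and 44.9 CPM in DKO and 47.8 and 0 CPM in control in the Cd163 set. Its level of H2-Aa, a class II antigen-presenting gene, was 5340 and 5480 CPM in DKO and 5570 and 3571 CPM in control, against 1319 and 1426 CPM in DKO and 1618 and 1367 CPM in the control Cd163 set. Ccr2 was 536 and 990 CPM in DKO and 914 and 558 CPM in control in the Lpl or Clec4b1 set, against 134 and 221 CPM in DKO and 199 and 211 CPM in control in the Cd163 set. Cd226, an adhesion receptor of T and NK cells, was found at 34.9 and 50.7 CPM in DKO and 64.5 and 41.2 CPM in control in the Lpl or Clec4b1 set and at 0 to 1.93 CPM in the Cd163 set. In every library each of these 4 genes was higher in the Lpl or Clec4b1 set. Retnla 0 cells had 2981 and 4345 CPM of H2-Aa in DKO and 2852 and 2067 CPM in control. Their Ccr2 was 340 and 580 CPM in DKO and 605 and 473 CPM in control. For both genes in every library the Lpl or Clec4b1 set lay above Retnla 0 cells and the Cd163 set below them. Summed over all Retnla cells, both genes lay below Retnla 0 cells in every library.

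The Cd163 set was higher in Ccl8, at 11233 and 12830 CPM in DKO and 11878 and 15956 CPM in control, against 3926 and 1388 CPM in DKO and 1217 and 767 CPM in control in the Lpl or Clec4b1 set. It was higher in Folr2, at 312 and 296 CPM in DKO and 430.1 and 390.2 CPM in control, against 136 and 97.3 CPM in DKO and 79.5 and 95.1 CPM in control in the Lpl or Clec4b1 set. Cbr2 stood at 434 and 717 CPM in DKO and 675 and 502 CPM in control, against 82.4 and 121 CPM in DKO and 49.4 and 98.2 CPM in control in the Lpl or Clec4b1 set. In every library these 3 genes were higher in the Cd163 set. Slc7a2 was lowest in the Lpl or Clec4b1 set of each library, at 761 and 1138 CPM in DKO and 733 and 526 CPM in control. C1qa lay between 2649 and 4778 CPM in each of the 3 sets and Retnla was highest in the Lpl or Clec4b1 set, at 7583 and 8893 CPM in DKO and 5110 and 4842 CPM in control.

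**Figure D4:**
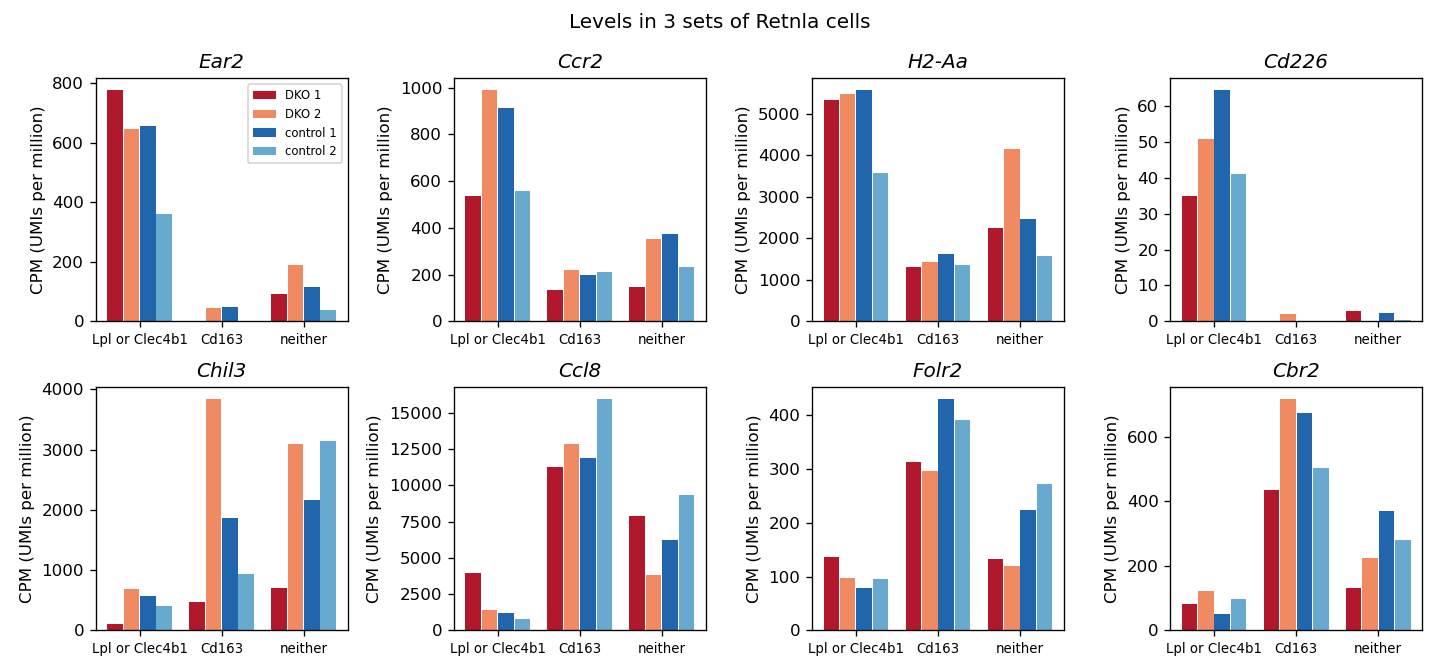
Levels of 8 genes in CPM (bars from 0) in 3 sets of Retnla cells, namely cells with Lpl or Clec4b1, cells with Cd163, and cells with neither, 1 bar per library. Ear2, Ccr2, H2-Aa and Cd226 are highest in the first set, and Ccl8, Folr2 and Cbr2 in the Cd163 set.

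Against dendritic-like Csf1r cells with 0 Retnla and at least 3 UMIs of Cd209a (26 and 86 cells in DKO, 93 and 33 in control), Retnla cells differed by macrophage genes. The Cd209a cells were not held to the cell cycle and Cd3 limits of the rule. Of 8628 genes tested 41.9% were called, 20.8% higher and 21.0% lower. All 15 macrophage genes tested were higher (median log2 change 3.41), and 10 of 11 MHC class II genes were lower (median -1.66). Flt3 had 0 and 0.575 CPM in DKO and 0.522 and 0.321 CPM in control Retnla cells, against 69.7 and 80.8 CPM in DKO and 61.8 and 24.8 CPM in control Cd209a cells (log2 change -7.00 ± 0.34, edgeR adjusted p = 3.76e-13). Slc7a2 was 4.91 ± 0.18 higher and Chil3 5.11 ± 0.21 higher on the log2 scale. Of 31 alternative activation genes 16 were higher and 7 lower, of 20 interferon gamma genes 4 were higher and 10 lower, and of 17 inflammatory cytokine genes 5 were higher and 3 lower.

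Ocstamp and Cdh1, genes that interleukin 4 induces in mouse macrophages for cell fusion and adhesion, marked another kind of cell. Csf1r cells with 0 Retnla and at least 3 UMIs of the pair numbered 867 and 606 in DKO and 895 and 639 in control, with 13740 to 17916 median UMIs, close in depth to Retnla cells. Of 10808 genes tested 37.9% were called, 18.3% higher and 19.7% lower in Retnla cells. Of 30 alternative activation genes 16 were higher and 5 lower, and of 17 macrophage genes 14 were higher and 3 lower. Cd163 was 3.54 ± 0.26, Rnase2a 3.61 ± 0.11, the cathepsin Ctsk 2.69 ± 0.27 and the sialic acid enzyme Npl 2.48 ± 0.09 higher on the log2 scale. MHC class II genes were lower in 10 of 11 and higher in 1 of 11. Of 20 interferon gamma genes 4 were higher and 7 lower (median log2 change -0.07). Of 21 inflammatory cytokine genes 5 were higher (Il6, Cxcl1, Ccl2, Ccl7 and Ccl12) and 6 lower, Il1b among them (median 0.01). The 8 largest falls were cell cycle and histone genes, and of 17 T and NK cell genes 14 were lower and 0 higher. The rule limits Mki67, Top2a and Cd3 UMIs in Retnla cells, and the Ocstamp or Cdh1 cells were not held to these limits. No comparison with these cells under the same limits was made.

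To ask whether loss of Raldh1 and Raldh3 in tumour cells altered Retnla cells, their sums were compared between 2 DKO and 2 control libraries. Of 9847 genes tested 2 passed in edgeR (0.0203%), both higher in DKO. Ocstamp, which macrophages need to fuse into giant cells, had 31.9 and 33.0 CPM in DKO and 7.83 and 7.06 CPM in control Retnla cells, a log2 change of 2.10 ± 0.23 (edgeR adjusted p = 0.0225). Mmp13, a collagenase, had 323 and 233 CPM in DKO and 41.0 and 70.2 CPM in control Retnla cells, a log2 change of 2.30 ± 0.27 (edgeR adjusted p = 0.0225). For both genes the groups were well apart. With at most 5% mitochondrial UMIs the Mmp13 change of 2.56 no longer passed (adjusted p = 0.85). At an unadjusted p under 0.05 there were 605 genes, and DESeq2 called 20. Leaving out 1 library gave 117 calls without DKO 1, 25 without DKO 2, 14 without control 1 and 10 without control 2, with Ocstamp and Mmp13 among them each time. With cells thinned to 3000 UMIs 17 genes were called, Mmp13 among them (1.94), while Ocstamp was below the filter on low counts and was not tested.

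Further genes with groups that did not overlap did not pass. The metalloproteinase Mmp12 had 555 and 586 CPM in DKO and 262 and 184 CPM in control (adjusted p = 0.0664 in edgeR), and Tlr12, a receptor for microbial profilin, 29.9 and 27.0 CPM in DKO and 8.09 and 8.66 CPM in control (adjusted p = 0.0527 in edgeR). Smad7, an inhibitor of TGF-β signalling, had 85.7 and 92.5 CPM in DKO and 44.1 and 34.0 CPM in control. Toward lower values, Vcan, the gene of the matrix proteoglycan versican, had 3.55 and 6.33 CPM in DKO and 21.7 and 30.1 CPM in control (adjusted p = 0.0527 in edgeR), and the lysozyme Lyz2 2854 and 2347 CPM in DKO and 5327 and 6357 CPM in control (adjusted p = 0.206 in edgeR). The kinase Fam20c, the chemokine Ccl5 and Mtus1 had log2 values of -0.89, -1.14 and -0.93. Groups that do not overlap were common, at 32.4% of all genes tested.

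The lists hardly contributed calls. Of 31 alternative activation genes tested 1 (Ocstamp) rose and 0 fell, 25 had positive and 6 negative log2 values, and the median was 0.45 where that of all genes was -0.00. Of 20 dendritic cell genes 10 passed the filter on low counts, and these had 10 of 10 positive values (median 1.00). Interferon gamma genes had 19 of 20 (median 0.36), hypoxia and glycolysis genes 19 of 21 (median 0.23) and MHC class II genes 8 of 9 (median 0.34). Monocyte genes had 13 of 17 negative values (median -0.28). None of the genes in these 5 lists passed in edgeR. Retnla itself, at 2162 and 5286 CPM in DKO and 3329 and 2610 CPM in control Retnla cells, overlapped between the groups.

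Whether the DKO difference was unlike that in Retnla 0 cells was tested with a term for kind of cell by group. Of 12216 genes 7 passed (0.0573%), 5 positive (0.0409%) and 2 negative (0.0164%). At an unadjusted p under 0.05 there were 704, and leaving out 1 library gave 266 calls without DKO 1, 58 without DKO 2, 33 without control 1 and 17 without control 2. Spp1, the gene of osteopontin, had 261 and 284 CPM in DKO and 234 and 292 CPM in control Retnla cells, and 137 and 139 CPM in DKO and 245 and 316 CPM in control Retnla 0 cells. The Retnla cells overlapped between groups, while the DKO values of Retnla 0 cells lay below both control values (difference of log2 changes 1.09 ± 0.11, edgeR adjusted p = 1.12e-05). F13a1, a clotting factor subunit, followed a like pattern, with 128 and 155 CPM in DKO and 119 and 214 CPM in control Retnla cells, and 77.9 and 99.5 CPM in DKO and 131 and 228 CPM in control Retnla 0 cells (0.80 ± 0.11, edgeR adjusted p = 0.00162).

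Ltc4s, the enzyme that makes leukotriene C4, was the reverse case. It had 46.1 and 40.1 CPM in DKO and 57.7 and 81.5 CPM in control Retnla cells, and 28.5 and 22.8 CPM in DKO and 17.6 and 21.2 CPM in control Retnla 0 cells (-1.05 ± 0.16, edgeR adjusted p = 0.005). DKO values lay below control values in Retnla cells and above them in Retnla 0 cells. Ocstamp and Mmp13 were also among the 7. Ocstamp had 53.2 and 43.7 CPM in DKO and 24.2 and 30.3 CPM in control Retnla 0 cells, so it was higher in DKO there too, by a smaller step, and Mmp13 had 213 and 165 CPM in DKO and 43.2 and 107 CPM in control Retnla 0 cells. In each library Ocstamp was lower in Retnla cells than in Retnla 0 cells. Without control 2 the differences of 1.33 for Ocstamp and 0.93 for Mmp13 became 1.11 and 0.65 and did not pass (edgeR adjusted p = 0.171 and 0.239). Ccl5, Olfml3 and the fractalkine receptor Cx3cr1 had differences of -0.79, -0.93 and -0.64 that did not pass.

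**Figure D5:**
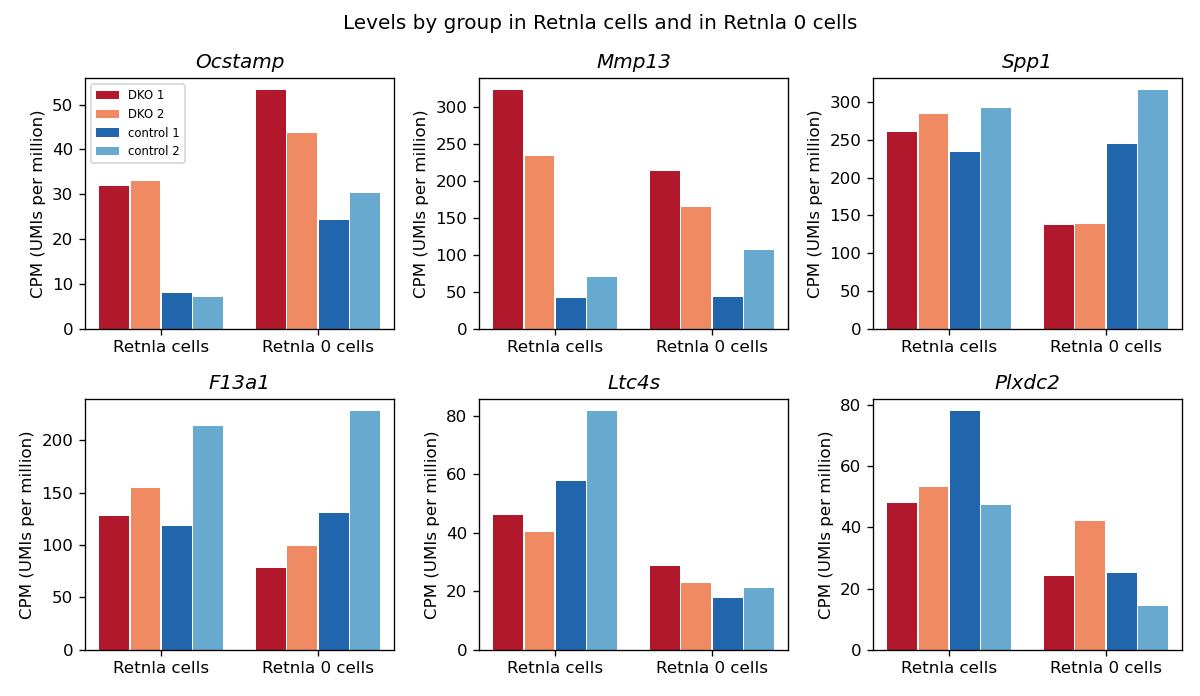
Levels in CPM (bars from 0) of 6 genes with a different DKO to control change in Retnla cells and Retnla 0 cells, 1 bar per library. Ocstamp and Mmp13 are higher in DKO in both kinds of cell, and Spp1 overlaps between the groups in Retnla cells while it is lower in DKO in Retnla 0 cells.

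Transcripts of Il4 and Il13, the interleukins named above as inducers of Retnla, and of the type 2 cytokine Il5 were counted over all cells of each library. Il4 had 7.74 and 14.7 CPM in DKO and 2.76 and 1.498 CPM in control, and Il13 19.3 and 29.8 CPM in DKO and 4.98 and 8.20 CPM in control. Il5 had 4.75 and 8.53 CPM in DKO and 1.505 and 1.54 CPM in control. Both DKO libraries lay above both control libraries for these 3 cytokines, with DKO 2 highest. Retnla over all cells did not follow that order, at 105 and 605 CPM in DKO and 243 and 137 CPM in control, since DKO 1 was the lowest library. No test was made with 4 libraries.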

How the data were processed

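The authors deposited UMI counts per barcode and gene for 4 libraries of CD45+ tumour leukocytes, per the file headers and whole-number values. Cell Ranger, Seurat 3.1.0 and R 3.6.0, with builds GRCh38 and mm10, are named per the submitters' processing notes. Members and gene lists were chosen with earlier results of these data known. Counts were summed per library and kind of cell and tested with edgeR 4.0.16 in R 4.3.3 (TMM, filterByExpr, robust quasi-likelihood), with the Benjamini-Hochberg adjustment over all genes tested and a threshold of 0.05. Genes were named by size of change (12 highest, 8 lowest) where the higher group averaged 20 CPM or more and all libraries moved 1 way. Lists gave counts and their most abundant genes. DESeq2 1.42.0, no filter, left-out libraries, stricter cell limits, removal of doublets, cells thinned to 3000 UMIs and other comparison cells were alternatives. Doublets were scored with Scrublet, marking 0.8% per 1000 barcodes. Free RNA was not removed. Coordinates are GENCODE vM21 on GRCm38, which matched 31011 of 31053 identifiers. Each fit was tested on simulated data.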

Additional observations from a re-analysis of the deposited data

Results flagged for a closer look

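In 7 genes the DKO to control change in Retnla cells differed from that in Retnla 0 cells by the edgeR term for kind of cell by group. The differences of log2 changes were 1.09 for Spp1, 0.80 for F13a1, 0.93 for Mmp13, 1.33 for Ocstamp, 1.66 for Edn1 (the gene of endothelin 1, low in level), -1.05 for Ltc4s and -1.08 for Plxdc2. Plxdc2, a plexin domain protein, had 48.1 and 53.1 CPM in DKO and 78.1 and 47.5 CPM in control Retnla cells, and 24.2 and 42.1 CPM in DKO and 25.03 and 14.2 CPM in control Retnla 0 cells. Some of these did not pass under other settings. Plxdc2 was -1.21 with Retnla 0 cells limited by C1q (edgeR adjusted p = 0.172), -1.16 with the rule's limits alone (0.102), -1.09 with cells thinned to 3000 UMIs (0.103), -0.69 without DKO 2 (0.0653) and -1.03 in DESeq2 (adjusted p = 0.0756). Mmp13 was 1.20 with doublets left out (edgeR adjusted p = 0.755), 1.13 with at least 10 Retnla UMIs (0.963), 1.32 with at most 5% mitochondrial UMIs (0.612), 0.81 with the C1q limit (0.0857) and 0.80 with thinned cells (0.0807). Ocstamp was 1.15 with the C1q limit (edgeR adjusted p = 0.0857) and 0.38 with thinned cells (1.00). F13a1 was 0.51 at 5% mitochondrial UMIs (edgeR adjusted p = 0.325) and 0.69 with thinned cells (0.0603), and Ltc4s was -0.86 with thinned cells (0.498). What these changes come from was not tested.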

How the results depend on the processing

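Against Retnla 0 cells, 3917 genes were called, and 2068 with cells thinned to 3000 UMIs and 2054 with Retnla 0 cells limited by C1q. Without 1 library the count lay between 2917 and 3686, and with no filter on low counts 1660 were higher and 2474 lower, where the main split was 2042 and 1875. Reversed signs against Retnla 0 cells were S100a4 (0.071), Cd209a (1.78) and Retnlg (0.57), all 3 with the C1q limit. In DKO against control 2 genes were called, and 20 by DESeq2, 115 with no filter, 17 with Retnla at 5 per 10000 UMIs, 6 with at most 5% mitochondrial UMIs, 17 with thinned cells, and 10 to 117 without 1 library. Same-numbered libraries did not deviate together (r = -0.131). With the replicate block 52 were called and with the crossed pairing 42, chosen after seeing the data, and both kept Ocstamp and Mmp13. For the difference by group 7 were called, and 65 with no filter, 20 with at least 10 Retnla UMIs, 61 at 5 per 10000 UMIs, 13 with at most 5% mitochondrial UMIs, and 17 to 266 without 1 library. Cx3cr1, not called, was 0.24 there at 5%. Calls against Cd209a cells lay between 2775 and 3566 without 1 library (3612 in all), and against Ocstamp or Cdh1 cells between 3029 and 3785 (4101 in all; 2623 by DESeq2). The share difference lay between -1.37 and 2.80 points without 1 library. The causes were not tested. Limits: 2 pools a group, a UMI limit that takes deeper cells, and no removal of free RNA.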
